A study of Mus musculus with 6 samples.

Results

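A set of 44 genes of dermal adipocyte identity and lipid storage was followed in mouse ventral dermis with activated beta-catenin and in littermate control dermis. The genes were chosen by name, as known adipocyte hormones, lipid droplet proteins, enzymes of fat synthesis and breakdown, and regulators of fat cell differentiation, and all 44 were found among the 23412 genes of the table. No measured value is part of that rule, though the genes were chosen with earlier results of these data known. The dermis holds a layer of white fat cells beneath the hair follicles, and the layer thickens and thins with the hair cycle. These cells store triglyceride in a large droplet and secrete hormones. Fat cells arise from fibroblast-like precursors when the nuclear receptor PPAR-gamma and the factor C/EBP-alpha switch on a shared programme, and canonical Wnt signalling is known to restrain that step in cultured precursors.

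The mutant mice carried HoxB6CreERT/+, R26-YFP/+ and CatnbΔex3/+, and the controls carried HoxB6CreERT/+ and R26-YFP/+ without the Catnb allele. Both groups had received tamoxifen in utero at embryonic day 16.5, were 3 weeks old at sampling and shared a mixed background of CD1 and C57BL/6, with 3 libraries in each group. The loss of exon 3 stabilises beta-catenin, and Cre was under Hoxb6 control, so only cells with that Cre could carry the stabilised protein. Whole ventral dermis freed of epidermis by trypsin was sequenced. In such tissue, fewer cells of a type and less RNA per cell cannot be told apart.

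Reads assigned to genes came to 11839144 to 13478910 in mutants and 7799565 to 9675359 in controls, as recovered from the steps of the deposited FPKM values (fragments per kilobase of gene, scaled to the depth of the library). A tested adipocyte gene had from 10 to 11036 reads in a library. Controls 1 and 2 expressed the X-inactivation RNA Xist and had almost no Y-linked reads, while control 3 and all mutants had 2857 to 4261 Y-linked reads, so group and sex are partly confounded. Mutant 2 also had 6.47 FPKM of Xist, against at most 0.184 FPKM in the other libraries with Y-linked reads. The ribosomal RNA precursor Rn45s took 8.10% of its reads, against 1.96% to 5.28% in the other libraries. Defining markers of adipocytes were present in every library, from 3.29 to 11.4 FPKM for Plin1 and from 8.60 to 31.1 FPKM for Adipoq. Ucp1, the uncoupling protein of brown fat, had no read in any library.

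Most adipocyte genes averaged higher in mutant dermis, and no member passed the test over all genes. Of the 44 members, 41 averaged 1 FPKM or more and were tested with limma on the log2(FPKM + 1) scale. Mutant minus control was above 0 in 40 of the 41. None had an adjusted p under 0.05 (0 of 41, Benjamini-Hochberg adjustment), where 0.143% of the 12560 genes tested were called, and the lowest adjusted p among the members was 0.0803. With limma-voom on recovered reads 1 member was called, Cfd, where 1.47% of all genes were. At an unadjusted p under 0.05, 21 of 41 members were higher (51.2%), where 10.5% of all genes were, and 0 were lower, where 0.748% of all genes were. The members had a median log2 difference of 0.45. All genes tested had a median of 0.09, and 71.3% of them lay above 0. Quantile normalization moved the all-gene median to -0.03 and the member median to 0.35, so the members lay 0.38 above all genes on that scale, against 0.36 as deposited. The members varied together by library, so these counts are not independent of each other. The median of the tested members, as log2(FPKM + 1) minus the control mean, was 0.26 in mutant 3 and 0.28 in control 1.

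The groups did not overlap for 14 of 41 tested members, all higher in mutants (34.1%), against 13.0% of all genes tested, and 2.65% of all genes were separated downward. Scaling changed that count. After median-of-ratios scaling it was 8 of 41, against 12.6% of all genes, while 17 members then had an unadjusted p under 0.05, against 10.5% of all genes. Single libraries also weighed on the count of members with an unadjusted p under 0.05. All of them higher in mutants, these numbered 11 without mutant 1, against 5.80% of all genes, 13 without mutant 2, against 13.9%, and 11 without control 2, against 5.88%.

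**Figure D1:**
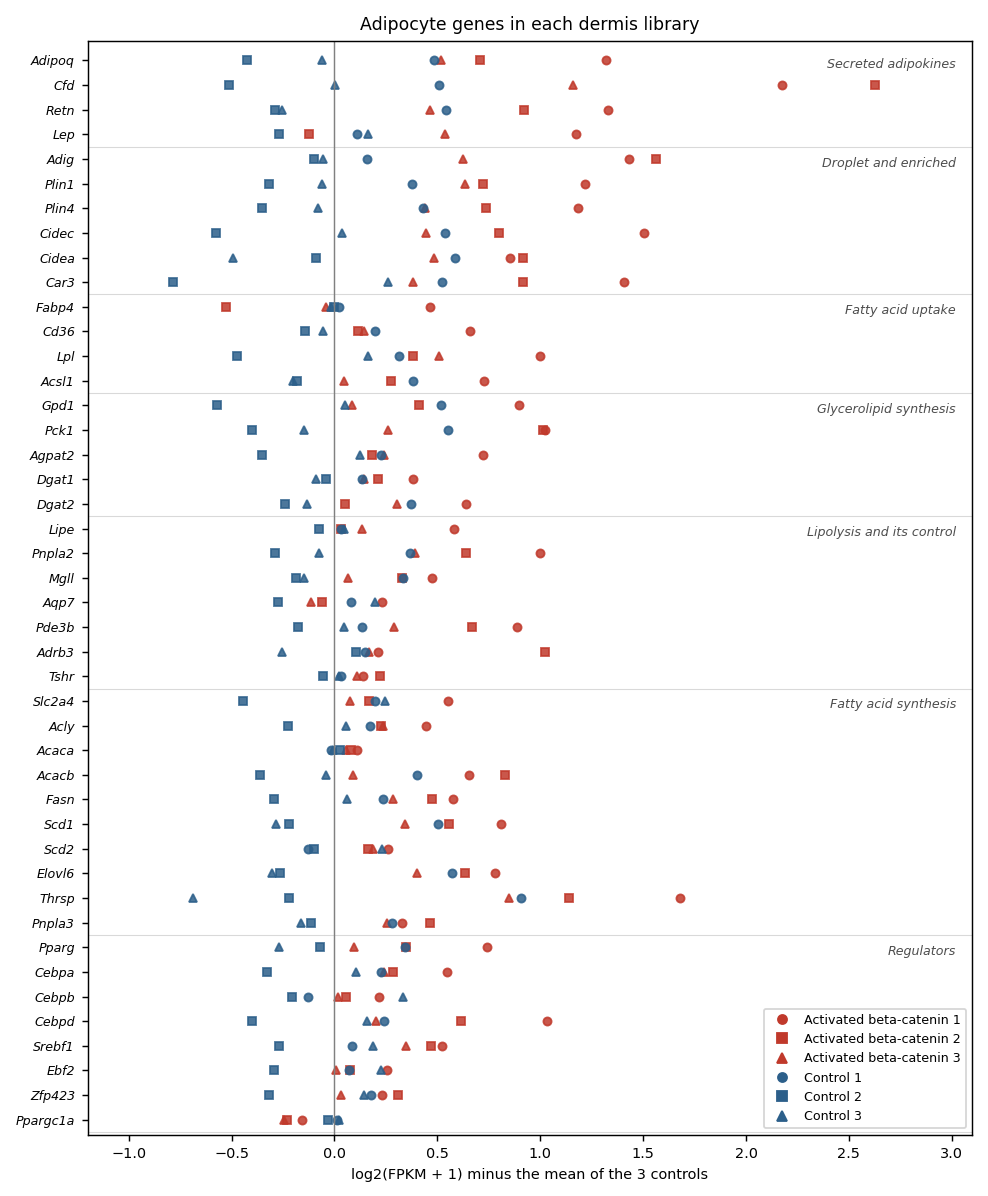
Each row is a gene and each point a library, plotted as log2(FPKM + 1) minus the mean of the 3 controls, with activated beta-catenin libraries in red and controls in blue. Cfd, Thrsp and Adig have the largest fitted differences (1.99, 1.22 and 1.21), mutant 1 is the highest library for 34 of 44 genes, and control 2 is the lowest for 31.

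The libraries of each group kept much the same order from gene to gene. Mutant 1 was the highest of the mutants for 36 of 44 members and mutant 3 the lowest for 35, and control 1 was the highest of the controls for 34 and control 2 the lowest for 32. Over all 6 libraries the highest value was in mutant 1 for 34 members and in mutant 2 for 8, and the lowest in control 2 for 31 and in control 3 for 9. The median of the tested members, as log2(FPKM + 1) minus the control mean, was 0.73, 0.41 and 0.26 in mutants 1 to 3 and 0.28, -0.27 and -0.01 in controls 1 to 3. Mutant 3 thus lay slightly below control 1 on this median. Over all genes tested the same measure was 0.25, -0.06 and 0.10 in mutants and 0.07, -0.11 and 0.04 in controls.

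Secreted adipokines had a median log2 difference of 0.88 over 4 genes, against 0.09 for all genes. Cfd (chromosome 10, 79890853 to 79892655), which encodes complement factor D or adipsin, a serine protease of the alternative complement pathway made mainly by fat cells, had 118, 162 and 57.9 FPKM in mutants 1 to 3, against 36.5, 17.5 and 25.4 FPKM in controls 1 to 3. Every mutant lay above every control, and the mutant mean was 4.25 times the control mean. The log2 difference was 1.99 (SE 0.37, 95% interval 1.15 to 2.83, adjusted p = 0.0803 with limma), the largest of the 41.

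Adipoq (chromosome 16, 23146536 to 23158028), the gene of the hormone adiponectin, had 31.1, 20.003 and 17.4 FPKM in mutants 1 to 3, against 17.0, 8.60 and 11.4 FPKM in controls 1 to 3. The groups were separate by a narrow margin, mutant 3 lying just above control 1 (log2 difference 0.85, SE 0.26, adjusted p = 0.239). Retn (chromosome 8, 3655770 to 3660110), which encodes resistin, stood at 8.70, 6.30 and 4.31 FPKM in mutants 1 to 3, against 4.61, 2.16 and 2.24 FPKM in controls 1 to 3. Here control 1 exceeded mutant 3 (log2 difference 0.90, adjusted p = 0.211). Lep (chromosome 6, 29060220 to 29073877), the gene of the satiety hormone leptin, was low, at 3.62, 0.877 and 1.98 FPKM in mutants 1 to 3, against 1.21, 0.697 and 1.29 FPKM in controls 1 to 3. Mutant 2 lay below controls 1 and 3, so leptin values overlapped between the groups (log2 difference 0.53, interval -0.11 to 1.17, adjusted p = 0.556). Leptin rested on 61 to 231 reads per mutant library and 36 to 67 per control library.

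The start regions of these genes are shown with Adig, the droplet gene with the largest difference, because Cfd and Adig had the largest differences of their groups while Adipoq and Lep are the classical hormones of fat. Each run covers 250 bases before to 50 bases after the RefSeq start on GRCm38.p6, on the plus strand, at chr10:79890603-79890902, chr16:23146286-23146585, chr2:158502362-158502661 and chr6:29059971-29060270. Capitals mark letters that match a searched motif on either strand.
Cfd: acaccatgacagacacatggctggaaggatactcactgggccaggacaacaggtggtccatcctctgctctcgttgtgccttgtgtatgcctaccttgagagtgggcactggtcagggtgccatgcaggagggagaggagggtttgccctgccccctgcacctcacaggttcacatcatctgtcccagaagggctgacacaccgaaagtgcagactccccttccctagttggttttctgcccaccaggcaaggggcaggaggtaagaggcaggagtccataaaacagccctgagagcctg
Adipoq: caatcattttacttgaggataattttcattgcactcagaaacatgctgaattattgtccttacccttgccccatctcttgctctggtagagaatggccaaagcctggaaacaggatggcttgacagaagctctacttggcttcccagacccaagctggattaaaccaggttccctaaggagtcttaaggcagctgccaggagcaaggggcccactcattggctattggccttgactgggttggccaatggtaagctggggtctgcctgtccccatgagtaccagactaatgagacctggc
Adig: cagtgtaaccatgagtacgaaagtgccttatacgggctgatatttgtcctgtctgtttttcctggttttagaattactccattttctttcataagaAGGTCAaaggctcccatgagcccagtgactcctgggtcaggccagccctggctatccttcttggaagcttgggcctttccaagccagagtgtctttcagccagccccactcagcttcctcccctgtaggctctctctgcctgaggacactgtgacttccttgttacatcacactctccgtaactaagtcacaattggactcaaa
Lep: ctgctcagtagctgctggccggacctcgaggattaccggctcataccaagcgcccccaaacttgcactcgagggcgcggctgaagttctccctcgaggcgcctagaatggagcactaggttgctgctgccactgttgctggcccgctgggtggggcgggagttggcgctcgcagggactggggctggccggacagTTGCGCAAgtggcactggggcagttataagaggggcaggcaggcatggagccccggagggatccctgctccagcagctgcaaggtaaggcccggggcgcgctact

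The motifs searched were the nuclear receptor hexamer AGGTCA, its direct repeat with any 1 base between the copies (the DR1 element read by PPAR-gamma with its partner RXR), the sterol element TCACNCCAC, the C/EBP palindrome TTGCGCAA and the TATA box TATAAA. Adig held a hexamer at position -154 relative to the start, and Lep a C/EBP palindrome at position -55. The windows of Cfd and Adipoq held none of these letter strings. RefSeq windows were matched for 29 of the 44 members, with 39 windows in all. The hexamer was in 10 of these 39 (25.6%), against 16.3% of 32851 windows of all genes, and the DR1 letters in 0 of 39, against 0.0396%. The palindrome was in 1 of 39 (2.56%), against 0.183%. The sterol letters were likewise in 1 of 39, that of Acsl1, against 1.24%, and TATAAA in 4 of 39 (10.3%), against 13.6%. Such matches describe letters in a window and not sites in use.

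**Figure D2:**
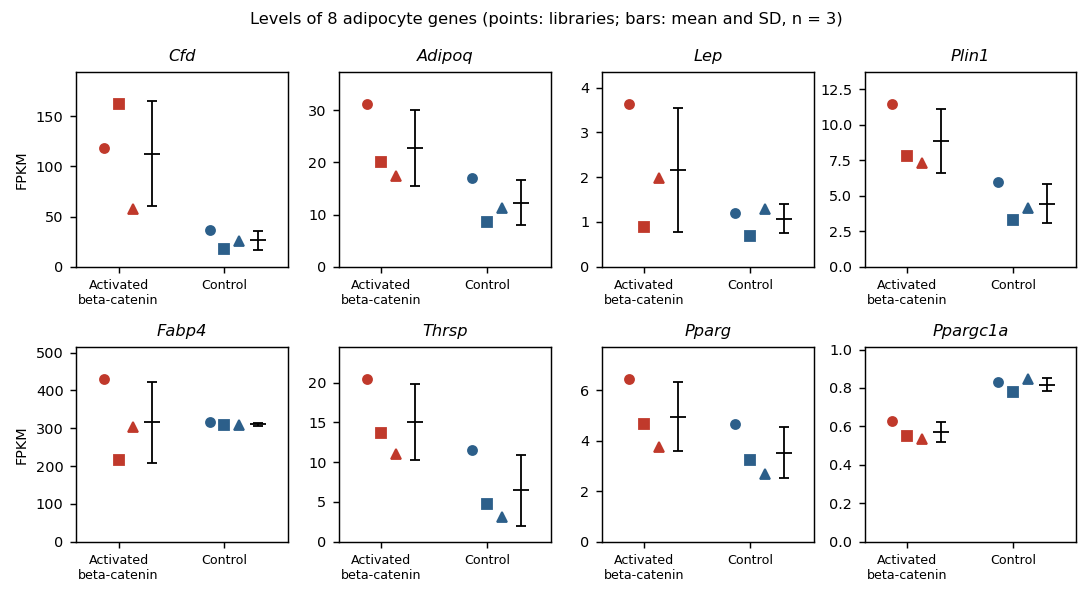
FPKM of 8 members by group, with a point per library (circle, square and triangle for replicates 1, 2 and 3) and the mean with SD beside them (n = 3 each). Cfd, Adipoq and Plin1 are separate between groups, Lep, Fabp4, Thrsp and Pparg overlap, and Ppargc1a is lower in all 3 mutants.

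Genes of the lipid droplet and other fat-enriched genes differed by similar amounts. All 6 were higher at an unadjusted p under 0.05, where 10.5% of all genes were. Their median log2 difference was 0.88, with a range from 0.75 to 1.21. Plin1 (chromosome 7, 79720218 to 79732903), whose protein perilipin 1 coats the droplet and gates its breakdown, had 11.4, 7.80 and 7.29 FPKM in mutants 1 to 3, against 5.95, 3.29 and 4.12 FPKM in controls 1 to 3. The groups were separate (log2 difference 0.86, SE 0.21, adjusted p = 0.138). Plin4 (chromosome 17, 56100591 to 56109803), another coat protein gene, stood at 13.0, 9.26 and 7.37 FPKM in mutants 1 to 3, against 7.32, 3.83 and 4.84 FPKM in controls 1 to 3, with mutant 3 only just above control 1 (log2 difference 0.79, adjusted p = 0.219). In GENCODE its span overlaps the coding gene Hdgfl2, with which reads may be shared.

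Adig (chromosome 2, 158502612 to 158508198), or adipogenin, encodes a small membrane protein of fat cells. Its values were 4.77, 5.34 and 2.31 FPKM in mutants 1 to 3, against 1.39, 0.998 and 1.06 FPKM in controls 1 to 3, separate between groups, with a mutant mean 3.60 times the control mean. The log2 difference was 1.21 (SE 0.23, interval 0.70 to 1.71, adjusted p = 0.0803), on 31 to 72 reads per mutant library and 10 to 15 per control library. Cidec (chromosome 6, 113424634 to 113435760), which drives droplet fusion, had 19.9, 11.9 and 9.06 FPKM in mutants 1 to 3, against 9.73, 3.96 and 6.56 FPKM in controls 1 to 3. Control 1 lay above mutant 3 (log2 difference 0.92, adjusted p = 0.288). Cidea (chromosome 18, 67343604 to 67367785), a droplet protein of brown fat and sebocytes, stood at 3.73, 3.94 and 2.66 FPKM in mutants 1 to 3, against 2.93, 1.46 and 0.862 FPKM in controls 1 to 3 and overlapped in the same way (log2 difference 0.75, adjusted p = 0.272).

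Car3 (chromosome 3, 14863512 to 14872523), the carbonic anhydrase abundant in fat and in slow skeletal muscle, had 254, 180.1 and 124 FPKM in mutants 1 to 3, against 137, 54.8 and 114 FPKM in controls 1 to 3. It too overlapped, mutant 3 lying between controls 1 and 3 (log2 difference 0.90, interval 0.06 to 1.74, adjusted p = 0.401). The dissected skin held muscle RNA: 15 skeletal muscle markers summed to 1026 to 2194 FPKM in mutants and 537 to 2017 FPKM in controls. At an unadjusted p under 0.05, 0 were higher and 1 lower, against 10.5% and 0.748% of all genes. Control 2 was lowest both for that sum and for Car3, but it was the lowest library for 31 of the 44 members. None of the 15 markers is particular to slow fibres. The part of muscle RNA in the Car3 values was not tested.

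**Figure D3:**
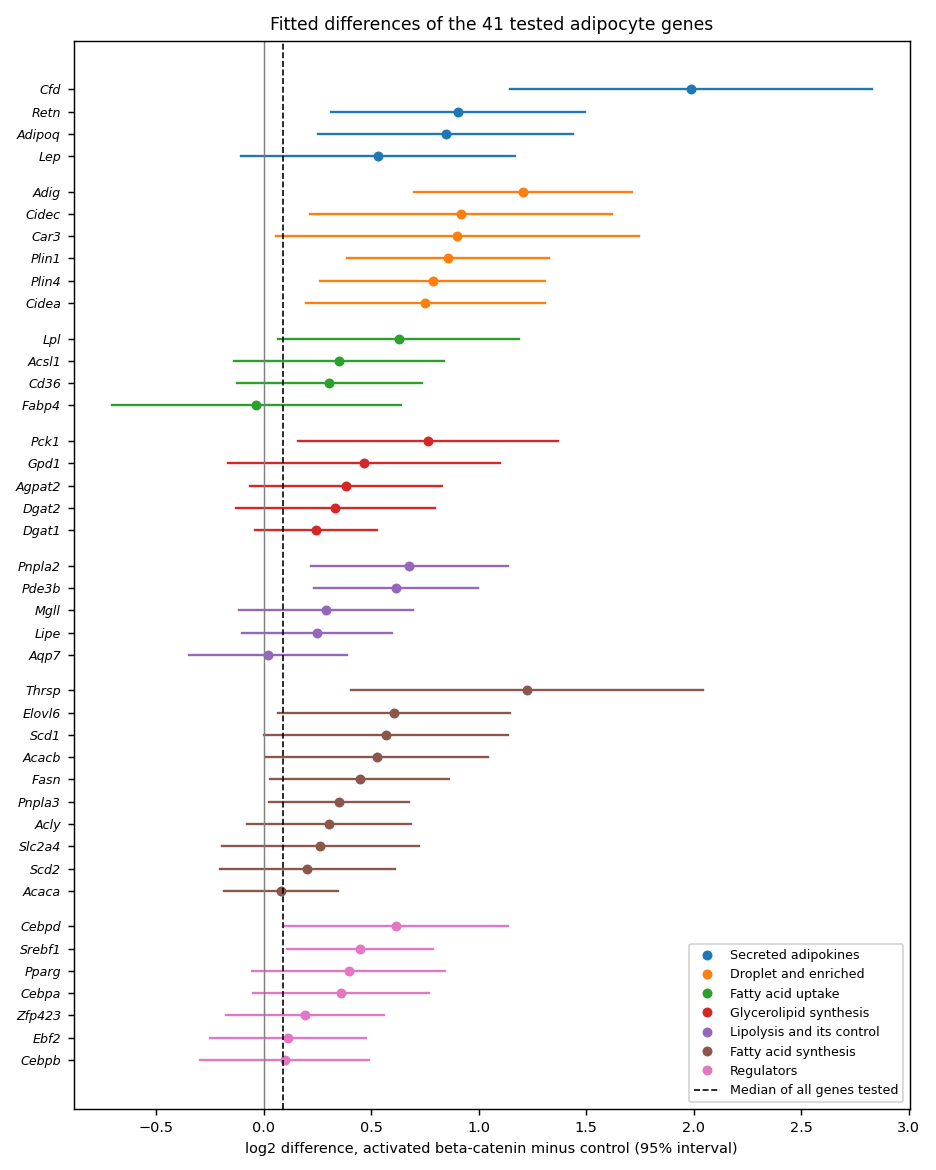
Fitted log2 differences (points) with 95% intervals (lines) for the 41 tested members, by role, activated beta-catenin minus control on the log2(FPKM + 1) scale. Adipokine and droplet genes reach from 0.53 for Lep to 1.99 for Cfd, and the other members lie between -0.03 for Fabp4 and 1.22 for Thrsp, most of them to the right of the dashed median of all genes at 0.09.

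Genes of fatty acid uptake and activation had a smaller median log2 difference, 0.33 over 4 genes. Fabp4 (chromosome 3, 10204088 to 10208576), the fatty acid binding protein of fat cells, endothelium and macrophages, was the most abundant member, and its mean was nearly the same in both groups. It had 429, 215 and 302 FPKM in mutants 1 to 3, against 315, 309.7 and 307 FPKM in controls 1 to 3. The controls lay within a few FPKM of each other while mutants 1 and 2 lay on either side of them (log2 difference -0.03, interval -0.71 to 0.64, adjusted p = 0.983). The mutant mean was 1.02 times the control mean, so the mean of FPKM and the mean of logs differ in sign here. It was the 1 tested member with a log2 difference below 0, and after quantile normalization it stood at 0.039.

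Lpl (chromosome 8, 68880491 to 68907448), lipoprotein lipase, which frees fatty acids from circulating triglyceride, had 74.8, 48.4 and 53.0 FPKM in mutants 1 to 3, against 46.1, 26.4 and 41.4 FPKM in controls 1 to 3. Every mutant exceeded every control (log2 difference 0.63, SE 0.25, adjusted p = 0.375). Cd36, a fatty acid transporter, and Acsl1, an acyl-CoA synthetase, averaged 33.4 ± 7.67 FPKM in mutants and 26.6 ± 3.46 FPKM in controls, and 15.7 ± 4.12 FPKM in mutants and 12.1 ± 3.17 FPKM in controls (SD, n = 3 each). Both overlapped between groups, with log2 differences of 0.30 and 0.35. Lpl, Cd36 and Fabp4 are also expressed by other cells of skin. All 12 macrophage markers in the table were higher at an unadjusted p under 0.05, against 10.5% of all genes. Their median log2 difference was 1.05, larger than the 0.45 of the adipocyte members. They summed to 276 to 514 FPKM in mutants and 109 to 194 FPKM in controls. The 10 blood endothelial markers summed to 56.7 to 70.0 FPKM in mutants and 43.0 to 53.4 FPKM in controls. None of either list was at 0 in all libraries, and their part in these values was not tested.

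Enzymes that build glycerolipid had a median log2 difference of 0.38 over 5 genes. Pck1 (chromosome 2, 173153048 to 173159273), which supplies glycerol phosphate from pyruvate-derived carbon in fat, had 7.13, 7.06 and 3.79 FPKM in mutants 1 to 3, against 4.85, 2.02 and 2.61 FPKM in controls 1 to 3. Control 1 exceeded mutant 3 (log2 difference 0.77, SE 0.27, adjusted p = 0.294). Dgat2 (chromosome 7, 99153658 to 99182719), which catalyses the last step of triglyceride synthesis, stood at 21.4, 13.9 and 16.7 FPKM in mutants 1 to 3, against 17.6, 11.2 and 12.1 FPKM in controls 1 to 3, with control 1 above mutants 2 and 3 (log2 difference 0.33, adjusted p = 0.636). Gpd1 (chromosome 15, 99717515 to 99725005), the glycerol phosphate dehydrogenase, had 17.5, 12.2 and 9.57 FPKM in mutants 1 to 3, against 13.3, 5.70 and 9.32 FPKM in controls 1 to 3, again with control 1 above mutants 2 and 3, and its log2 difference was 0.46 (adjusted p = 0.620). Dgat1, which shares the reaction of Dgat2, was separate between groups at a small size, 7.16 ± 0.706 FPKM in mutants and 5.88 ± 0.567 FPKM in controls (SD, n = 3 each, log2 difference 0.24). The acyltransferase gene Agpat2 had a log2 difference of 0.38 and overlaps the endothelial gene Egfl7 in GENCODE, so without stated strand settings its reads may be shared.

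Among the lipases and their control signals, the initiating lipase and a cyclic AMP phosphodiesterase were separate between groups, the lipase only narrowly. The later lipases overlapped. Pnpla2 (chromosome 7, 141455198 to 141460743), adipose triglyceride lipase, had 13.5, 10.3 and 8.51 FPKM in mutants 1 to 3, against 8.37, 4.94 and 5.89 FPKM in controls 1 to 3, separate between groups (log2 difference 0.68, SE 0.20, adjusted p = 0.227). Mutant 3 lay only just above control 1. Pde3b (chromosome 7, 114415281 to 114539251), which degrades cyclic AMP in answer to insulin and so curbs lipolysis, stood at 3.46, 2.84 and 1.95 FPKM in mutants 1 to 3, against 1.64, 1.13 and 1.49 FPKM in controls 1 to 3 and was separate as well (log2 difference 0.61, adjusted p = 0.185). Mgll (chromosome 6, 88724412 to 88828360), monoglyceride lipase, had 16.2, 14.5 and 11.9 FPKM in mutants 1 to 3, against 14.6, 9.86 and 10.1 FPKM in controls 1 to 3. It overlapped, with a log2 difference of 0.29 and an adjusted p of 0.636. Lipe, hormone-sensitive lipase, averaged 6.43 ± 1.56 FPKM in mutants and 5.17 ± 0.274 FPKM in controls (SD, n = 3 each, log2 difference 0.25). The glycerol channel gene Aqp7 was near the test's floor at 1.07 ± 0.271 FPKM in mutants and 1.05 ± 0.335 FPKM in controls, and its log2 difference of 0.02 was below 0 after median-of-ratios scaling (-0.038) and quantile normalization (-0.15).

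The receptor genes Adrb3 and Tshr were below the level required for the test. Adrb3, the beta-3 adrenergic receptor that starts lipolysis, had 0.878, 2.30 and 0.824 FPKM in mutants 1 to 3, against 0.799, 0.744 and 0.359 FPKM in controls 1 to 3, and Tshr, the thyrotropin receptor, had 0.335, 0.413 and 0.309 FPKM in mutants 1 to 3, against 0.241, 0.168 and 0.233 FPKM in controls 1 to 3. For each, every mutant lay above every control, although for Adrb3 the lowest mutant was at 0.824 FPKM and the highest control at 0.799 FPKM. With no filter on low values their log2 differences were 0.47 (adjusted p = 0.593) and 0.16 (adjusted p = 0.367).

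Lipogenic genes, mostly enzymes of fatty acid synthesis, included several abundant members and had a median log2 difference of 0.40. All 10 of them lay above 0, where 71.3% of all genes tested did. An unadjusted p under 0.05 was found for 6, all higher, where 10.5% of all genes were. Scd1 (chromosome 19, 44394455 to 44407879), the stearoyl-CoA desaturase of fat and sebaceous glands, had 117, 97.7 and 84.2 FPKM in mutants 1 to 3, against 94.3, 56.6 and 54.2 FPKM in controls 1 to 3. Control 1 lay above mutant 3 (log2 difference 0.57, interval 0.00 to 1.14, adjusted p = 0.442). Its neighbour Scd2 (chromosome 19, 44293674 to 44306864) stood at 72.4, 67.5 and 68.8 FPKM in mutants 1 to 3, against 55.0, 56.1 and 71.0 FPKM in controls 1 to 3, with control 3 above mutants 2 and 3 (log2 difference 0.20, adjusted p = 0.775). The desaturase genes are close relatives, and reads that match both could have been split or dropped in counting.

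Fasn (chromosome 11, 120805846 to 120824547), fatty acid synthase, had 46.5, 43.2 and 37.8 FPKM in mutants 1 to 3, against 36.5, 25.0 and 32.2 FPKM in controls 1 to 3, with no overlap (log2 difference 0.45, SE 0.18, adjusted p = 0.398). Elovl6 (chromosome 3, 129532355 to 129638495), which lengthens the product of Fasn, stood at 35.5, 32.0 and 27.0 FPKM in mutants 1 to 3, against 30.5, 16.7 and 16.2 FPKM in controls 1 to 3. There control 1 exceeded mutant 3, and controls 2 and 3 were lower still (log2 difference 0.61, adjusted p = 0.375). Thrsp (chromosome 7, 97412938 to 97417730), a small lipogenic protein known as Spot 14, had the second largest log2 difference of the 41 members, 1.22 (SE 0.36, adjusted p = 0.222). Its values were 20.4, 13.7 and 11.05 FPKM in mutants 1 to 3, against 11.5, 4.74 and 3.16 FPKM in controls 1 to 3, spread widely among the controls.

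Among the carboxylases and the other lipogenic genes, no log2 difference exceeded 0.53. Acacb, the mitochondrial acetyl-CoA carboxylase, had 4.53, 5.25 and 2.75 FPKM in mutants 1 to 3, against 3.64, 1.74 and 2.42 FPKM in controls 1 to 3 (log2 difference 0.53, adjusted p = 0.434). Its cytosolic relative Acaca was nearly level at 11.7 ± 0.232 FPKM in mutants and 11.1 ± 0.187 FPKM in controls (SD, n = 3 each), and although its groups did not overlap, its log2 difference of 0.08 was -0.026 and -0.018 after median-of-ratios scaling and quantile normalization. Its span overlaps the predicted gene Gm11437. Acly, which supplies acetyl-CoA, was also separate, at 40.6 ± 3.63 FPKM in mutants and 32.9 ± 4.64 FPKM in controls (SD, n = 3 each, log2 difference 0.30). The patatin-like gene Pnpla3 had 4.40, 4.92 and 4.13 FPKM in mutants 1 to 3, against 4.21, 2.97 and 2.84 FPKM in controls 1 to 3 (log2 difference 0.35, adjusted p = 0.398). Slc2a4, the insulin-regulated glucose transporter of fat and muscle, averaged 3.34 ± 0.787 FPKM in mutants and 2.66 ± 0.894 FPKM in controls (SD, n = 3 each) and overlapped.

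Sebaceous glands also make fatty acids at a high rate, and their markers varied partly with these genes. Of 11 tested sebaceous markers, 6 were higher and 1 was lower at an unadjusted p under 0.05, against 10.5% and 0.748% of all genes. Their 12 markers summed to 218, 201 and 178 FPKM in mutants 1 to 3 and to 187, 128 and 112 FPKM in controls 1 to 3. The same order of libraries was seen in Scd1, Elovl6, Thrsp and the regulator gene Pparg. Control 1 lay above mutant 3 in that sum too. The list shares Plin2 with the further lipid genes described later, none of it was at 0 in all libraries, and the part of sebaceous RNA in the lipogenic and Pparg values was not tested.

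**Figure D4:**
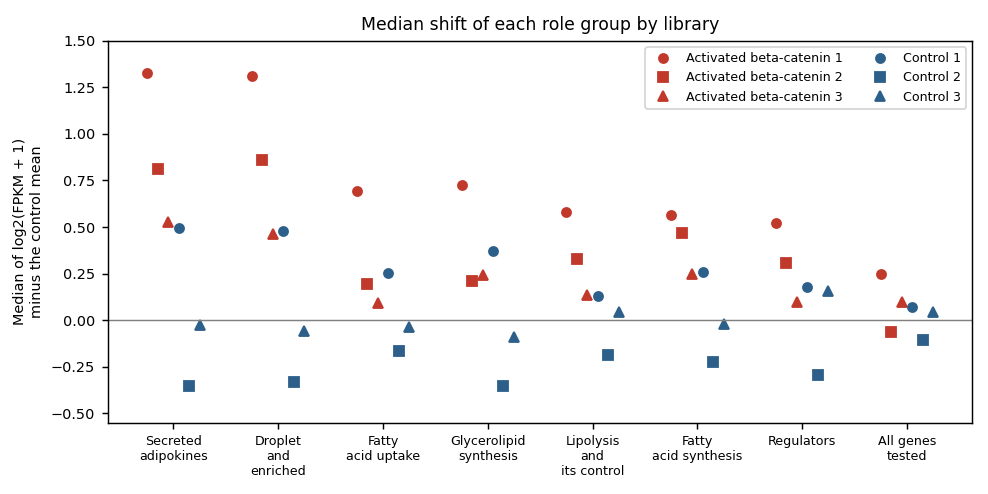
Median over the tested genes of each role group, in each library, of log2(FPKM + 1) minus the control mean, with activated beta-catenin libraries in red and controls in blue. Adipokine medians are 1.33, 0.81 and 0.53 in mutants 1 to 3 and 0.49, -0.36 and -0.03 in controls 1 to 3, and regulator medians are 0.52, 0.31 and 0.10 in mutants and 0.18, -0.30 and 0.16 in controls.

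Transcription factors and coactivators of the fat programme had a median log2 difference of 0.36 over 7 tested genes, 0.27 above the all-gene median, against 0.79 for adipokines and 0.79 for droplet genes. Pparg (chromosome 6, 115360951 to 115490399), the nuclear receptor at the head of the programme, had 6.44, 4.68 and 3.77 FPKM in mutants 1 to 3, against 4.65, 3.24 and 2.70 FPKM in controls 1 to 3. Control 1 nearly equalled mutant 2 and exceeded mutant 3 (log2 difference 0.39, interval -0.05 to 0.84, adjusted p = 0.517). Cebpa (chromosome 7, 35119293 to 35121928), its partner, stood at 28.8, 23.9 and 23.1 FPKM in mutants 1 to 3, against 22.9, 15.2 and 20.9 FPKM in controls 1 to 3, separate by a margin of less than 1 FPKM (log2 difference 0.36, adjusted p = 0.522).

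Srebf1 (chromosome 11, 60199089 to 60222581), which drives genes of fatty acid synthesis, had 13.9, 13.4 and 12.3 FPKM in mutants 1 to 3, against 10.04, 7.63 and 10.9 FPKM in controls 1 to 3. Every mutant exceeded every control, and the log2 difference was 0.45 (SE 0.15, adjusted p = 0.287). Cebpd (chromosome 16, 15887286 to 15891031), an early factor of differentiation, stood at 8.93, 6.43 and 4.58 FPKM in mutants 1 to 3, against 4.73, 2.68 and 4.41 FPKM in controls 1 to 3 (log2 difference 0.62, adjusted p = 0.333), with control 1 above mutant 3. The other early factor, Cebpb (chromosome 2, 167688915 to 167690418), had 24.2, 21.5 and 20.9 FPKM in mutants 1 to 3, against 18.8, 17.8 and 26.3 FPKM in controls 1 to 3. Control 3 was the highest library, and the log2 difference of 0.10 was below 0 after median-of-ratios scaling (-0.014) and quantile normalization (-0.0020). Srebf1, Cebpd and Cebpb overlap other coding genes in GENCODE (Rai1, Spidr and Tmem189).

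Precursor factors were low. Zfp423, which commits precursors to the fat lineage, averaged 1.40 ± 0.233 FPKM in mutants and 1.12 ± 0.380 FPKM in controls, and Ebf2, a factor of brown and beige precursors, 1.15 ± 0.193 FPKM in mutants and 1.01 ± 0.358 FPKM in controls (SD, n = 3 each). Both overlapped, and Ebf2 had a log2 difference of 0.11, which was -0.041 after quantile normalization. Ppargc1a (chromosome 5, 51454250 to 51567726), the coactivator of mitochondrial biogenesis in brown fat and muscle, was the 1 member for which every mutant lay below every control. It had 0.629, 0.548 and 0.535 FPKM in mutants 1 to 3, against 0.832, 0.777 and 0.845 FPKM in controls 1 to 3, on 37 to 40 reads per mutant library and 40 to 46 per control library. It was below the level required for the test, and with no filter its log2 difference was -0.21 (adjusted p = 0.392).

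Several of these factors are also expressed by dermal fibroblasts. The 10 fibroblast markers had a median log2 difference of 1.04 and summed to 9621 to 13857 FPKM in mutants and 2761 to 10565 FPKM in controls. At an unadjusted p under 0.05, 6 were higher and 0 lower, against 10.5% and 0.748% of all genes. None of them was at 0 in all libraries. Their part in the regulator values was not tested.

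Levels were also set against Plin1 in the same library, a measure that no library-wide scaling can alter. Plin1 was taken after the values had been seen. Since Plin1 itself was higher in mutants, a gene with equal levels in the 2 groups is lower on this measure by construction, and all the ratios share the Plin1 values. Several members kept close to a fixed ratio over all 6 libraries. Adipoq was 2.72, 2.56 and 2.39 times Plin1 in mutants 1 to 3, against 2.85, 2.61 and 2.75 times in controls 1 to 3. Plin4 ranged from 1.01 to 1.23 times Plin1, Cidec from 1.205 to 1.74 times, Retn from 0.54 to 0.81 times and Pde3b from 0.27 to 0.36 times. In these 5 genes and Pnpla2 the highest ratio was under 1.5 times the lowest, and of the 6 only Pnpla2 was separate between groups, at 1.17 to 1.32 times Plin1 in mutants and 1.407 to 1.502 times in controls. These 6 were picked by that small spread, and the share of all genes with such a spread was not counted. Some members known mainly from fat cells varied more, with highest ratios 2.82 times the lowest for Lep, 2.92 for Adig and 3.90 for Cfd.

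Cfd and Adig lay above the control ratios in every mutant, where 0.390% of all genes did. Cfd was 10.3, 20.7 and 7.95 times Plin1 in mutants 1 to 3, against 6.13, 5.31 and 6.17 times in controls 1 to 3. Adig was 0.42, 0.68 and 0.32 times Plin1 in mutants and 0.23, 0.30 and 0.26 times in controls. Both sets were separate, with mutant 2 highest, and each had p = 0.1 by an exact two-sided permutation test over libraries, the smallest value that 3 against 3 allows (adjusted p = 0.165 over 43 ratios). With Adipoq or Plin4 as the base both remained separate, and with Cidec as the base only Cfd did. Lep had no such pattern, at 0.32, 0.11 and 0.27 times Plin1 in mutants and 0.20, 0.21 and 0.31 times in controls.

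Most genes were lower relative to Plin1 in mutants, so a lower ratio is no feature of the members. The ratio was lower with no overlap for 82.2% of all genes tested and for 23 of 40 tested members (57.5%). Of all 43 member ratios, 24 were lower, 2 were higher and 17 overlapped. The 24 comprised 4 of 4 uptake genes, 4 of 5 glycerolipid genes, 4 of 7 lipolysis genes, 6 of 10 lipogenic genes, 6 of 8 regulators, 0 of 4 adipokines and 0 of 5 droplet genes. Pparg was 0.56, 0.60 and 0.52 times Plin1 in mutants 1 to 3, against 0.78, 0.99 and 0.65 times in controls 1 to 3. Cebpa was 2.52, 3.06 and 3.17 times Plin1 in mutants and 3.84, 4.63 and 5.08 times in controls, and Fabp4 37.5, 27.6 and 41.5 times in mutants and 53.0, 94.1 and 74.5 times in controls. The count depended on the gene taken as the base. Among tested members it was 14 of 40 with Adipoq, against 47.0% of all genes, 12 of 40 with Plin4, against 41.9%, and 7 of 40 with Cidec, against 19.3%.

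**Figure D5:**
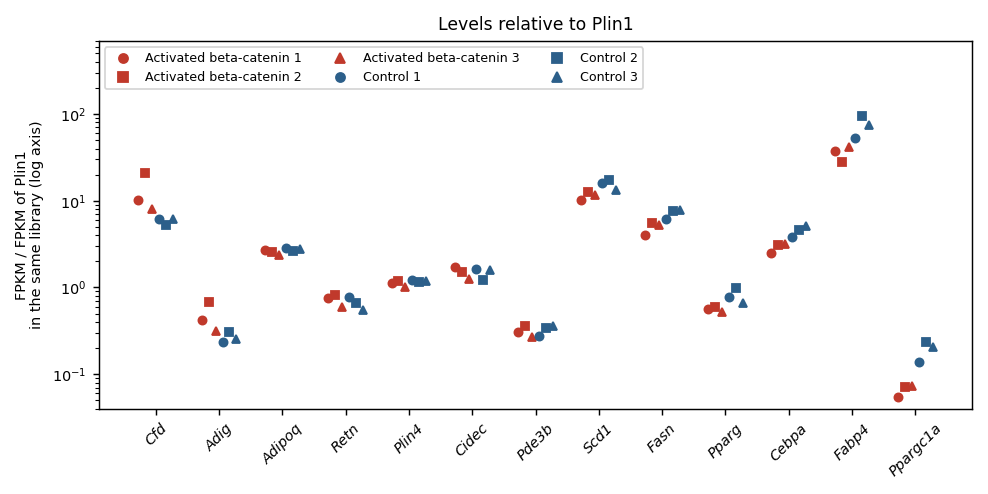
FPKM of 13 members divided by the FPKM of Plin1 in the same library, on a log axis, with activated beta-catenin libraries in red and controls in blue, the genes picked after their values were seen. Adipoq, Plin4, Cidec and Pde3b form flat rows, Cfd and Adig are higher in mutants, and Pparg, Cebpa, Fabp4 and Ppargc1a are lower.

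Other genes of fat metabolism had a lower median difference than the members. Of 49 further adipocyte and lipid genes, 47 were in the table and 41 were tested: 0 were called by limma or by limma-voom, 38 were above 0, and 8 were higher and 0 lower at an unadjusted p under 0.05, with a median log2 difference of 0.26. Of all genes tested, 71.3% were above 0, and 10.5% were higher and 0.748% lower at that limma p, with a median of 0.09. The 4 with the smallest p were G0s2, an inhibitor of the lipase Pnpla2 (5.09 ± 1.08 FPKM in mutants and 2.42 ± 0.530 FPKM in controls, log2 difference 0.83, adjusted p = 0.0970), the carboxylesterase gene Ces1d (8.72 ± 2.93 FPKM in mutants and 2.82 ± 1.47 FPKM in controls, 1.36, adjusted p = 0.103), the haptoglobin gene Hp (41.6 ± 14.4 FPKM in mutants and 17.0 ± 6.10 FPKM in controls, 1.24, adjusted p = 0.163) and Nnat (4.51 ± 1.61 FPKM in mutants and 2.22 ± 0.666 FPKM in controls, 0.75, adjusted p = 0.227). The adiponectin receptor genes were nearly level, at 43.8 ± 8.82 FPKM in mutants and 41.3 ± 5.74 FPKM in controls for Adipor1 and 25.3 ± 5.26 FPKM in mutants and 23.7 ± 1.37 FPKM in controls for Adipor2 (SD, n = 3 each).

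Genes of preadipocytes and their precursors were mixed. Of 20, 17 were tested: 0 were called by limma or by limma-voom, 11 were above 0, and 5 were higher and 0 lower at an unadjusted p under 0.05, with a median log2 difference of 0.21. Among all genes tested 71.3% were above 0, a larger share than here, and 10.5% were higher and 0.748% lower at that limma p. The smallest p values belonged to Pdgfra, a growth factor receptor of fibroblasts and precursors (26.2 ± 5.16 FPKM in mutants and 15.4 ± 3.35 FPKM in controls, log2 difference 0.74, adjusted p = 0.185), Ly6a, the stem cell antigen Sca-1 (0.85, adjusted p = 0.239), the adhesion gene Icam1 (0.40, adjusted p = 0.288) and Klf2, a factor known to restrain Pparg (0.46, adjusted p = 0.354). Dlk1, the classical preadipocyte antigen, was at most 0.292 FPKM in any library.

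With library sex as a covariate, which compares the mutants with control 3 alone, the member median was 0.47 and the adipokine, droplet and regulator medians were 1.03, 0.90 and 0.25. In that fit 0 members were called, and 15 had an unadjusted p under 0.05, all higher in mutants, against 4.04% of all genes. All 3 mutants lay above control 3 for 34 of 44 members and for 32 of the 41 tested, against 27.8% of all genes. Control 3 exceeded every mutant for Cebpb and for Ppargc1a.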

How the data were processed

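RNA from ventral dermis was sequenced in 3 mutant and 3 control libraries, and 1 FPKM value per gene and library was deposited by the authors. Per the submitters' processing notes, the tools were GSNAP and HTSeq and the build mm10. The sources used here do not give their versions, the annotation, the strand setting or the gene lengths. FPKM can differ between libraries by an offset shared by all genes, so 2 other scalings were tried. Reads were recovered from the FPKM steps within each gene (a relative tolerance of 3e-09), with a whole-number solution for 23412 of 23412 genes, of which 1820 were at 0 throughout and 1448 were seen in a single library and set to 1 read. These reads served for depth and for a limma-voom alternative. No library was a repeat of another (chi-square over degrees of freedom 13.4 to 67.0 within groups), and all 6 were used as separate replicates, as numbered in the labels. Mutant 2 held 3494 Y-linked reads and 2475 Xist reads, and whether it came from a single mouse was not tested.

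Genes averaging 1 FPKM or more were compared as log2(FPKM + 1), which understates the change of low genes, with limma 3.58.1 in R 4.3.3 (intensity trend, two-sided, no covariate, Benjamini-Hochberg over 12560 genes, threshold 0.05). Members were sorted into 7 role groups, described by counts and medians with no set test. Values in every library are given for members with an unadjusted p under 0.05, for the 2 most abundant members of each role group, and for Adipoq, Lep, Plin1, Pparg and Cebpa, with a few further members beside them. Members, role groups and lists were chosen with earlier results of these data known. Positions are from GENCODE release M21 (GRCm38), and start regions from RefSeq (GRCm38.p6). Alternatives changed the pseudocount, the filter, the scaling, the trend, library sex, the replicate block and the libraries used. The fits and the read recovery were tested on simulated data.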

Additional observations from a re-analysis of the deposited data

How the results depend on the processing

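Under 18 alternatives, 2 of them chosen after seeing the data, the median log2 difference of the members and of each role group kept its sign. The member median was 0.31 to 0.57 with single libraries left out and 0.21 without both control 2 and mutant 1. Of 725 values of single members, 681 kept their direction and their side of the threshold, 15 passed it and 29 changed sign, in 8 of 41 members. The cause was not tested for any change below, beyond fewer libraries, fewer genes or a shared scaling where a setting says so.

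Genes called numbered 18 as reported, 9 with pseudocount 0.1, 4 with no filter, 28 under median-of-ratios scaling, 32 under quantile normalization, 10 with no intensity trend, 11 with library sex as a covariate and 185 with limma-voom on recovered reads. They numbered 3 to 193 with single libraries left out, 3 without mutant 2 and 193 without control 3. Members called numbered 0 as reported, 1 with limma-voom (Cfd, adjusted p = 0.0317) and 0 to 2 with single libraries left out: Thrsp without control 1, and Cfd and Adig without control 3 or without mutant 3. Against control 3 alone, chosen after seeing the data and with a lone library assumed to vary like the others, 266 genes, 7 members (Cfd, Retn, Adig, Plin1, Cidea, Pck1 and Thrsp) and 4 of the other adipocyte and preadipocyte genes were called. The last count was 0 as reported and 0 to 2 with single libraries left out.

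Members with an unadjusted p under 0.05 numbered 21 as reported, 13 with the mean FPKM 5 filter, which tests fewer of them, and 11 to 26 with single libraries left out. Without both control 2 and mutant 1, also chosen after seeing the data, 10 genes were called, 4 members had such a p, and the regulator median was 0.10. The adipokine median was 1.42 with the mean FPKM 5 filter, which leaves Cfd and Adipoq. Members with separate groups numbered 14 as reported, 8 under median-of-ratios scaling, 6 under quantile normalization and 7 with reads scaled as in limma-voom. Of all genes, 13.0% were separated upward as reported and 12.6% under median-of-ratios scaling. That share was not counted for quantile normalization or limma-voom reads, so the 6 and 7 have no background to be read against. Separate members numbered 14 to 32 with single libraries left out and 33 against control 3 alone. Fewer libraries separate more genes of any kind. The share higher in mutants was 78.0% of members and 22.8% of all genes without control 1, 65.9% and 16.3% without mutant 3, 41.5% and 35.9% without mutant 2, 41.5% and 19.4% without control 3, and 78.0% and 27.8% against control 3 alone. Members lower relative to Plin1 numbered 24 as reported, 15, 8 and 13 with Adipoq, Cidec and Plin4 as the base, and 25 to 29 with single libraries left out.

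The sign changes were all in values with an adjusted p of 0.575 or more. Aqp7 was -0.038, -0.15, -0.18, -0.11, -0.18 and -0.22 with median-of-ratios, quantile, library sex, limma-voom, control 3 alone and without control 2 and mutant 1. In the same order Cebpb was -0.014, -0.0020, -0.24, -0.043, -0.24 and -0.066. Ebf2 was -0.041, -0.11, -0.11 and -0.11 with quantile, library sex, control 3 alone and without control 2 and mutant 1. Acaca was -0.026, -0.018 and -0.057 with median-of-ratios, quantile and limma-voom, Scd2 -0.029 with library sex and with control 3 alone, and Fabp4 0.039 with quantile. Gpd1 was -0.036 and Slc2a4 -0.10 without control 2 and mutant 1. With single libraries left out Aqp7 ran from -0.12 to 0.12, Cebpb from -0.0059 to 0.26, Ebf2 from -0.035 to 0.23 and Fabp4 from -0.28 to 0.21.

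Replicate numbers did not pair the libraries: same-numbered mutants and controls had correlations of 0.0016, 0.04 and -0.08 in their deviations from the group means, and 0 of 3 mutants correlated best with their own number. With the replicate block 68 genes, 2 members (Plin1 and Thrsp) and 1 of the other genes were called. Some values rest on few reads: Adig had 10 reads in each of controls 2 and 3, and Cidea 15 in control 3.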

Other observations

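Few thermogenic genes were well detected. Of 11 brown and beige markers, 4 were tested, and 0 of these had an unadjusted p under 0.05, where 10.5% of all genes were higher and 0.748% lower. Ucp1, Cpt1b and Zic1 stayed under 0.1 FPKM throughout. Tmem26, a surface marker of beige fat cells picked here after its values were seen, averaged below the level required for the test. It had 1.39, 0.955 and 0.744 FPKM in mutants 1 to 3, against 0.256, 0.225 and 0.344 FPKM in controls 1 to 3. Every mutant lay above every control. Lhx8, near its detection limit, was also separate (0.164 ± 0.0802 FPKM in mutants and 0.00990 ± 0.0172 FPKM in controls). Cox7a1, Cox8b and Tbx1 averaged slightly higher in mutants and overlapped. Other markers of the list averaged slightly lower in mutants and overlapped: Dio2 (0.515 ± 0.151 FPKM in mutants and 0.576 ± 0.116 FPKM in controls), Prdm16 (0.105 ± 0.0225 FPKM in mutants and 0.117 ± 0.0249 FPKM in controls) and Elovl3 (36.0 ± 13.9 FPKM in mutants and 42.3 ± 3.73 FPKM in controls, SD, n = 3 each).

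Ventral skin can hold the mammary rudiment, whose fat pad lies close to the dissected layer. The milk protein genes Csn2 and Wap stayed under 0.1 FPKM in every library. Csn3, another milk protein gene, had 1.28, 0.499 and 0.0294 FPKM in mutants 1 to 3, against 0, 0.0395 and 0.168 FPKM in controls 1 to 3, with mutants 1 and 2 above the controls and mutant 3 among them. Lalba reached at most 0.192 FPKM, in mutant 3, against at most 0.172 FPKM in controls. The keratin genes Krt8, Krt18 and Krt19 of simple epithelium had log2 differences of 0.77, 0.70 and 1.18 (adjusted p = 0.211, 0.292 and 0.155 with limma), with mutant 1 the highest library for each. The mammary factor gene Elf5 had -0.40 (adjusted p = 0.666) and the estrogen receptor gene Esr1 0.63 (adjusted p = 0.344). Of 6 tested mammary markers, 4 were higher and 0 lower at an unadjusted p under 0.05 with limma, against 10.5% and 0.748% of all genes. Groups did not overlap for 4, all higher in mutants, against 13.0% of all genes. The 10 mammary markers summed to 18.8 to 35.4 FPKM in mutants and 14.6 to 23.7 FPKM in controls. The 12 hair follicle markers summed to 3712 to 7702 FPKM in mutants and 6849 to 7694 FPKM in controls, lowest in mutant 2. None of the 12 had a log2 difference above 0 (0 of 12, median -0.35), opposite in sign to the adipocyte genes, where 71.3% of all genes were above 0. At an unadjusted p under 0.05, 0 were higher or lower, against 10.5% and 0.748% of all genes. The part of these tissues in the adipocyte values was not tested.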
